A study of Rattus norvegicus with 9 samples.

Results

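Set and the genes related to it as nucleosome assembly proteins were followed in rat retinal ganglion cells that had received Set-β. They were taken as all transcript clusters annotated with exactly 1 of 10 gene symbols: Setsip, Setl1, Setl2, Anp32a, Anp32b, Anp32e, Nap1l1, Nap1l3, Nap1l4 and Nap1l5. A transcript cluster is the set of array probes that is summarised into 1 value. The rule found 11 clusters among 36685, since Nap1l3 has a pair of clusters. No cluster carried the symbol Set itself.

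Retinal ganglion cells were immunopanned from postnatal day 4 Sprague Dawley rats, transfected and then sorted for green fluorescence. The wt_Set group received wild-type Set-β, the myr_Set group received myr-Set-β and the mCherry group, the control, received the red fluorescent protein mCherry. All 3 groups also received pMAX-GFP, were cultured on laminin after sorting and gave RNA 3 days after transfection. Each group had 3 arrays, titled as biological replicates. Separate litters or cultures are not stated, so the p-values measure no more than the spread among these arrays, and that may be technical. The labels name no promoter or species for the Set-β constructs.

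Set is an acidic nuclear protein of the nucleosome assembly protein fold. It carries histones, inhibits protein phosphatase 2A and is a part of the complex that shields histone tails from acetyltransferases. The Anp32 proteins are acidic leucine-rich nuclear proteins that bind histones, and Anp32a shares with Set both the phosphatase inhibition and the shielding of histones. The Nap1-like proteins carry core histones and take part in placing them on DNA and removing them. A myristoyl group is a lipid that can anchor a protein to membranes.

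None of the member clusters passed an adjusted p of 0.05 between any groups. Every tested member cluster was lower on average in wt_Set than in mCherry, and 9 of 10 were lower in myr_Set. The exception was the pseudogene Setl2, which had its highest group mean in myr_Set and its lowest in wt_Set. The lowest value of 8 of the 10 tested clusters was on 1 array, myr_Set replicate 1. Values below are log2 intensities of the deposited scale, on which each array has a median intensity of 100. A difference is the mean of the first group minus the mean of the second on that log2 scale, with its standard error (SE) from the limma fit. Adjusted p-values are limma's, two-sided, with Benjamini-Hochberg adjustment over 18343 clusters. Levels are compared only within a cluster, since probes of different clusters differ in brightness.

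**Figure D1:**
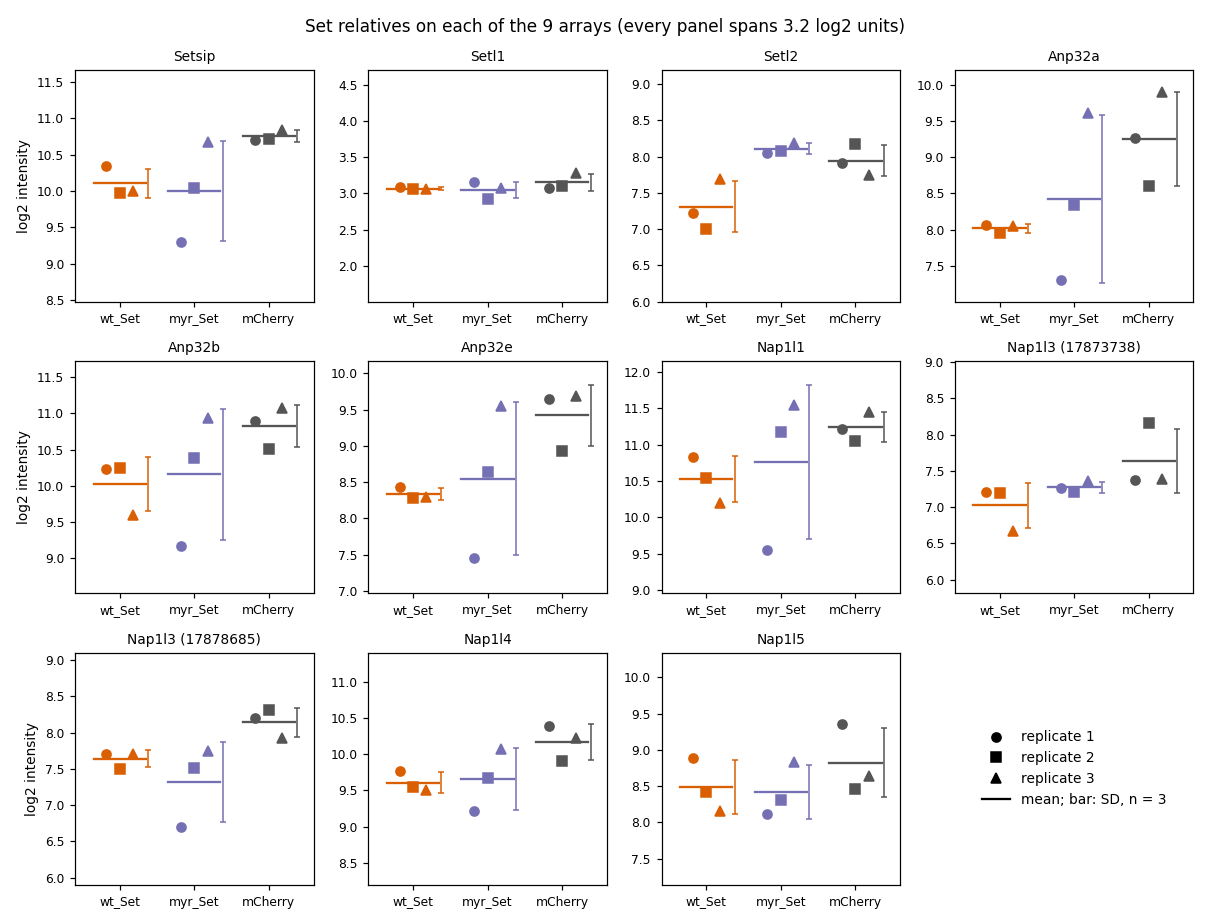
Log2 intensity (vertical axis) of the 11 member clusters on each array, by group (horizontal axis). Symbols are replicates, lines are group means and the bars beside them are SD (n = 3). Every panel spans 3.2 log2 units, so that the wide spread of the myr_Set arrays for Anp32a, Anp32e and Nap1l1 and the narrow one for Setl2 can be compared by eye.

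The arrays differed in signal range, taken as the log2 distance between the 10th and 90th percentiles. It was 4.12 to 4.21 on the wt_Set arrays, 3.82, 4.18 and 4.46 on myr_Set replicates 1, 2 and 3 and 4.29 to 4.54 on the mCherry arrays. The median difference of all 18343 tested clusters was -0.18 for wt_Set against mCherry and -0.16 for myr_Set against mCherry. Quantile normalization brought both medians to -0.03, and cyclic loess gave -0.03 for wt_Set and -0.01 for myr_Set. The test took clusters whose mean log2 intensity reached 6.65, the median cluster, which is called the level filter here. The 15 ganglion cell marker clusters were all past it, and their summed intensity ran from 7645 to 13240 in wt_Set, 7960 to 14298 in myr_Set and 11730 to 20207 in mCherry. The sum of 14 microglia and macrophage marker clusters ran from 1926 to 3216 in wt_Set, 1951 to 3298 in myr_Set and 1897.5 to 2906 in mCherry, with 10 past the filter. The sum of 10 glial marker clusters ran from 991 to 4283 in wt_Set, 1239 to 4963 in myr_Set and 1167 to 5248 in mCherry. For 8 endothelial, mural and fibroblast clusters it was 855 to 1505 in wt_Set, 955 to 1693.5 in myr_Set and 729 to 2037 in mCherry. Past the filter were 5 of 9 amacrine and horizontal, 2 of 8 photoreceptor and bipolar and 4 of 10 glial marker clusters. The same held for 6 of 8 endothelial, mural and fibroblast clusters and 0 of 4 cycling clusters. The filter lies below a rough mark of background, the median of 236 odorant receptor clusters, which was 6.81 to 7.61. Passing the filter therefore does not show expression. Above that mark on all 9 arrays were 10 of 15 ganglion cell and 3 of 14 microglia and macrophage clusters. So were 1 of 9 amacrine and horizontal and 1 of 10 glial clusters, and 0 of the other lists. The part of signal range and of marker levels in the differences below was not tested, except by the values under other scalings. In RNA from many cells, fewer cells of a type and less RNA per cell cannot be told apart.

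Among the Set-named clusters, Setsip was the one with a clear signal on every array. RefSeq lists rat Setsip as a protein-coding gene with Set among its other names. Setl1 carries the name Set there too, and also Setsip, but its cluster showed no clear signal on any array. Setsip is therefore taken as the nearest readout of Set here. Whether its probes also bind transcripts of the gene now called Set, or of the transfected construct, was not tested. Setsip (cluster 17731176) had 10.34, 9.98 and 9.99 on wt_Set replicates 1, 2 and 3, 9.30, 10.04 and 10.67 on those of myr_Set and 10.70, 10.72 and 10.85 on those of mCherry. All 6 arrays with a Set-β construct lay below all 3 mCherry arrays, although myr_Set replicate 3 was lower than the nearest mCherry array by very little. The same held with quantile normalization, whereas with cyclic loess both groups overlapped mCherry. The difference from mCherry was -0.65 ± 0.31 (SE) in wt_Set and -0.76 ± 0.31 in myr_Set, with adjusted p of 0.447 in both. Quantile normalization gave -0.34 in wt_Set and -0.46 in myr_Set, and cyclic loess -0.29 in each, so the mean of both groups was below mCherry under all 3 scalings. The forms of Set differed by -0.10 for myr_Set minus wt_Set, with a 95% interval from -0.81 to 0.60. Without myr_Set replicate 1 that value was 0.25, and without wt_Set replicate 1 it was 0.02.

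Of the Set-like genes, RefSeq lists Setl1 as a non-coding RNA and Setl2 as a pseudogene. Whether the Setl2 probes also bind transcripts of Set or of the transfected construct was not tested. Setl2 (cluster 17631873) had 8.05, 8.07 and 8.19 on myr_Set replicates 1, 2 and 3, 7.22, 7.00 and 7.69 on those of wt_Set and 7.91, 8.17 and 7.75 on those of mCherry. On the deposited scale all wt_Set arrays were below all arrays of both other groups. From mCherry this was by very little, with wt_Set replicate 3 at 7.69 and mCherry replicate 3 at 7.75. Under both other scalings wt_Set stayed below myr_Set but overlapped mCherry, since wt_Set replicate 3 was then above mCherry replicates 1 and 3. On the deposited scale the myr_Set arrays lay within 0.14 log2 units of each other. For myr_Set minus wt_Set the difference was 0.80 ± 0.21 (SE), with a 95% interval from 0.32 to 1.28. Quantile normalization gave 0.85 and cyclic loess 0.80, and leaving out any 1 array gave 0.65 to 0.99. Its adjusted p was 0.9998, so it did not pass. Against mCherry, Setl2 differed by -0.64 ± 0.21 in wt_Set (adjusted p = 0.447) and by 0.16 ± 0.21 in myr_Set (adjusted p = 0.671). Quantile normalization gave -0.47 in wt_Set and 0.38 in myr_Set, and cyclic loess -0.42 in wt_Set and 0.38 in myr_Set. The myr_Set value was 0.28 without mCherry replicate 2 and 0.07 without mCherry replicate 3. As a rough mark of background, the median of 236 odorant receptor clusters was taken on each array, and Setl2 was below it on wt_Set replicates 1 and 2 only. Setl1 (cluster 17704873) was below it on all 9 arrays, with 3.05 to 3.09 in wt_Set, 2.93 to 3.15 in myr_Set and 3.07 to 3.29 in mCherry, and was left out of the test by the level filter.

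Anp32a and Anp32e spread most widely over the arrays. Anp32a, the family member closest to Set in function, had the widest spread of all member clusters, with an SD over 9 arrays of 0.86. In the decile of tested clusters with a similar level the median SD was 0.50, and 94.3% of those clusters had a smaller one. Anp32e, known as a chaperone that removes a histone variant from chromatin, had an SD of 0.76, and 90.4% of clusters of similar level had a smaller SD. On myr_Set replicate 1, their lowest array, both Anp32a and Anp32e were below the odorant receptor median, so the lower end of their spread is near background and no fold is given for it. Nap1l1 and Anp32b followed with 0.65 and 0.63. The promoters of these 4 genes are printed because their clusters spread most from array to array. The stretches are RefSeq's of build GRCr8, from 250 bases before the start of the gene to 50 after, 5′ to 3′, with every CCAAT box (letters CCAAT, sought on both strands) and every GC box (letters GGGCGG, sought on both strands) in capitals, so that a match to the other strand appears as its reverse complement. Matches of the same box that overlap are counted one by one.
Anp32a promoter, chr8:71724328-71724627, plus strand: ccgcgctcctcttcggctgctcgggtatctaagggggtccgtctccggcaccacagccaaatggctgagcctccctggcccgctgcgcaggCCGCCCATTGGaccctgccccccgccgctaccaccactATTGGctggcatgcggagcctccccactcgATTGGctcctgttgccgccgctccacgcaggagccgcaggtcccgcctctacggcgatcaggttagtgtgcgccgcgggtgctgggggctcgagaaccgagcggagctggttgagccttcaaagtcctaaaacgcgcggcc
Anp32e promoter, chr2:186161342-186161641, plus strand: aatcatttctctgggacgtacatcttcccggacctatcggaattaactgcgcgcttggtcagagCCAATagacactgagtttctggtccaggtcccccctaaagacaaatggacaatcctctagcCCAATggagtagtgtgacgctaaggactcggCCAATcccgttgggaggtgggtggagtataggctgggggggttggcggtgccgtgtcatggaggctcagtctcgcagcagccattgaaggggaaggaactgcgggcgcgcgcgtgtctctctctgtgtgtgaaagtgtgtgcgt
Anp32b promoter, chr5:65538622-65538921, plus strand: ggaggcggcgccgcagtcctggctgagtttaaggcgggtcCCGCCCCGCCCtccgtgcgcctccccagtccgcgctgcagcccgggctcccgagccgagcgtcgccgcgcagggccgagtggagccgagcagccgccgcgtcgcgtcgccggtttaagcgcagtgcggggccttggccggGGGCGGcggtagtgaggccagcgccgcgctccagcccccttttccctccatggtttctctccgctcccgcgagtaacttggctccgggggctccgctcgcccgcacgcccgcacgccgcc
Nap1l1 promoter, chr7:48819299-48819598, plus strand: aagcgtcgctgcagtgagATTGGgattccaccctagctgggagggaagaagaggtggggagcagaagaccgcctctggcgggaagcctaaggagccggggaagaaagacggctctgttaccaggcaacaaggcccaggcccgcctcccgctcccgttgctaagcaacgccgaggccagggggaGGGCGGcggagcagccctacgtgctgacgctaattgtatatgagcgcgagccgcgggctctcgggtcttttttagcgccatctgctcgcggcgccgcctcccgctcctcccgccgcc
The CCAAT box letters stood 3 times each in the Anp32a and Anp32e stretches, once in that of Nap1l1 and not in that of Anp32b, where the GC box letters stood 3 times. In the Anp32a stretch the GC box directly adjoins a CCAAT box. Promoter stretches were listed for 7 of the 10 genes, and of these 3 held the CCAAT box letters and 4 the GC box letters. Among all 33469 RefSeq stretches of this length, 37.5% held the first and 33.1% the second. These are letter matches and no measured binding.

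Anp32a (cluster 17844873) had 8.06, 7.95 and 8.05 on wt_Set replicates 1, 2 and 3, 7.31, 8.34 and 9.62 on those of myr_Set and 9.26, 8.61 and 9.90 on those of mCherry. The wt_Set arrays were close together and all below mCherry, whereas the myr_Set arrays covered nearly the whole range of the study. Both other scalings also kept wt_Set below mCherry without overlap for Anp32a, Anp32b, Anp32e and Nap1l1. For Anp32b this was by very little, with wt_Set replicate 2 at 10.39 and mCherry replicate 2 at 10.40 under quantile normalization, and 10.36 and 10.38 under cyclic loess. The difference of Anp32a from mCherry was -1.24 ± 0.53 (SE) in wt_Set, a level of 0.425 of the control, with adjusted p of 0.447. In myr_Set it was -0.83 ± 0.53 with adjusted p of 0.454.

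Anp32e (cluster 17740901) had 8.44, 8.28 and 8.29 on wt_Set replicates 1, 2 and 3, 7.45, 8.64 and 9.55 on those of myr_Set and 9.64, 8.93 and 9.68 on those of mCherry. The order of its arrays was nearly that of those of Anp32a. The differences were -1.08 ± 0.46 (SE) in wt_Set and -0.87 ± 0.46 in myr_Set, both with adjusted p of 0.447. Anp32b, which binds histones and promotes cell cycle progression in other cells, gave a smaller difference. Its cluster 17798634 had 10.24, 10.25 and 9.60 in wt_Set, 9.17, 10.39 and 10.93 in myr_Set and 10.90, 10.51 and 11.07 in mCherry. The differences were -0.79 ± 0.42 in wt_Set and -0.66 ± 0.42 in myr_Set, with adjusted p of 0.447 and 0.453.

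The values of myr_Set against mCherry rested on which myr_Set array was present. Without myr_Set replicate 1 they were -0.28 for Anp32a, -0.33 for Anp32e and -0.17 for Anp32b, and without replicate 3 they were -1.43, -1.38 and -1.05. Between the forms of Set the 3 genes differed by 0.40, 0.21 and 0.13 for myr_Set minus wt_Set, with adjusted p of 0.9998 each. The 95% intervals ran from -0.81 to 1.61 for Anp32a, from -0.84 to 1.26 for Anp32e and from -0.81 to 1.08 for Anp32b.

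**Figure D2:**
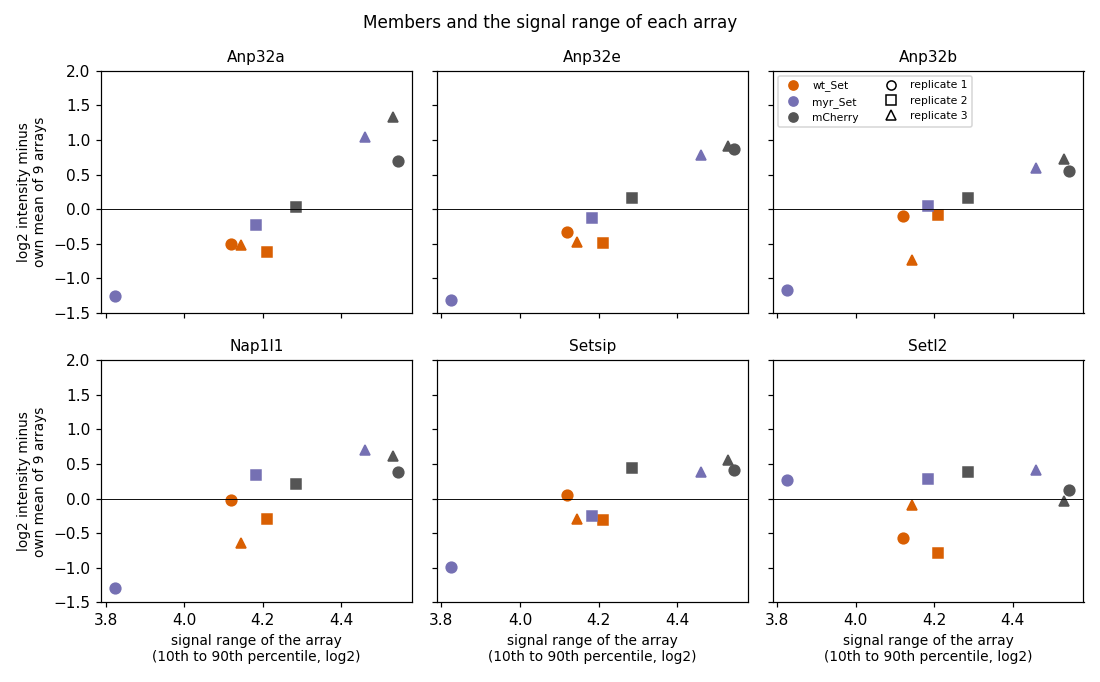
Log2 intensity minus the cluster's own mean over 9 arrays (vertical axis) against the signal range of the array (horizontal axis, log2 distance between the 10th and 90th percentiles), for 6 members. Colours are groups and symbols replicates. The array with the narrowest range, myr_Set replicate 1 at 3.82, is the lowest point for Anp32a, Anp32e, Anp32b, Nap1l1 and Setsip but not for Setl2.

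The arrays at both ends of the members' values were those at both ends of the signal range. The median of the 10 tested member clusters, each set against its own mean over 9 arrays, was -0.07, -0.28 and -0.45 on wt_Set replicates 1, 2 and 3. It was -0.996, -0.13 and 0.39 on those of myr_Set and 0.53, 0.19 and 0.48 on those of mCherry. The 3 arrays with the widest signal range, mCherry replicates 1 and 3 and myr_Set replicate 3, were the 3 highest. On myr_Set replicate 1, with the narrowest range, 9 of 10 clusters were below their own mean, with Setl2 above it. The median signal of the most abundant decile of clusters was also lowest there, at 9.57 against 10.01 to 10.43 on the other 8 arrays.

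Among the Nap1-like genes, Nap1l1, a widely expressed carrier of core histones that is found in the developing nervous system, came next in spread. Nap1l1 (cluster 17828139) had 10.83, 10.55 and 10.20 on wt_Set replicates 1, 2 and 3, 9.55, 11.18 and 11.55 on those of myr_Set and 11.22, 11.05 and 11.46 on those of mCherry. The wt_Set arrays lay below all mCherry arrays, while myr_Set replicates 2 and 3 lay within or above the mCherry range and myr_Set replicate 1 was the lowest of all. The differences from mCherry were -0.72 ± 0.46 (SE) in wt_Set and -0.48 ± 0.46 in myr_Set, with adjusted p of 0.458 and 0.566. Without myr_Set replicate 1 the myr_Set value turned to 0.12.

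Nap1l4, a widely expressed relative of Nap1l1, varied less. Its cluster 17638700 had 9.77, 9.55 and 9.50 in wt_Set, 9.21, 9.67 and 10.07 in myr_Set and 10.38, 9.90 and 10.22 in mCherry. Its SD over 9 arrays, 0.37, was below the median of 0.50 for clusters of similar level. The differences of -0.56 ± 0.24 (SE) in wt_Set and -0.52 ± 0.24 in myr_Set had adjusted p of 0.447 in both, and quantile normalization brought them to -0.22 in both comparisons, while cyclic loess gave -0.19 in wt_Set and -0.05 in myr_Set. Nap1l5, an imprinted gene in mouse that is expressed in brain, had 8.88, 8.42 and 8.16 in wt_Set, 8.12, 8.31 and 8.84 in myr_Set and 9.36, 8.46 and 8.65 in mCherry. Its arrays overlapped in every comparison, and its differences of -0.33 ± 0.31 and -0.40 ± 0.31 from mCherry became -0.01 and -0.10 with quantile normalization. With cyclic loess the myr_Set value was -0.02 and the wt_Set value nearer to 0 still.

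Nap1l3, a gene of the nervous system on the X chromosome, was measured by a pair of clusters that did not give the same picture. Cluster 17878685 had 7.70, 7.50 and 7.71 on wt_Set replicates 1, 2 and 3, 6.70, 7.51 and 7.75 on those of myr_Set and 8.20, 8.31 and 7.92 on those of mCherry. Cluster 17873738 had 7.21, 7.19 and 6.67 in wt_Set, 7.26, 7.21 and 7.36 in myr_Set and 7.37, 8.15 and 7.39 in mCherry. In both clusters all Set-β arrays were below all mCherry arrays, but the first was lowest on myr_Set replicate 1, where it was below the odorant receptor median, and the second on wt_Set replicate 3. With quantile normalization this separation held for the first cluster in myr_Set and for the second in wt_Set, and with cyclic loess for the first in myr_Set alone. For myr_Set minus wt_Set they pointed in opposite directions, with -0.32 ± 0.27 (SE) in the first and 0.25 ± 0.25 in the second. Against mCherry the first differed by -0.50 ± 0.27 in wt_Set and -0.82 ± 0.27 in myr_Set, and the second by -0.61 ± 0.25 and -0.36 ± 0.25. The second was below the odorant receptor median on 5 arrays, all 3 of wt_Set and replicates 1 and 2 of myr_Set, and its control mean rested on mCherry replicate 2. Without that array its differences were -0.36 in wt_Set and -0.10 in myr_Set. Adjusted p-values for both clusters against mCherry lay between 0.447 and 0.472.

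**Figure D3:**
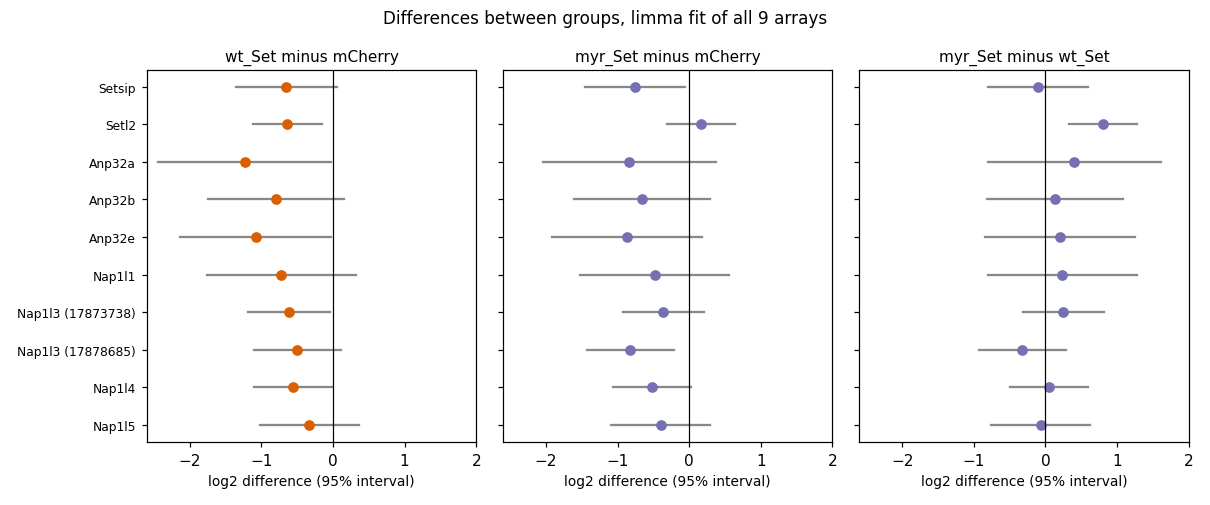
Difference in log2 intensity (horizontal axis) for the 10 tested member clusters (vertical axis) in the 3 comparisons. Points are limma estimates and lines their 95% intervals. The interval of Setl2 for myr_Set minus wt_Set, 0.32 to 1.28, lies above 0, whereas the other 9 intervals in that panel include 0.

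Read as a list, the tested members were lower with wild-type Set-β. In wt_Set against mCherry 10 of 10 clusters were lower, with a median difference of -0.65, where 65.5% of all tested clusters and 77.2% of the single-symbol clusters were lower and the single-symbol median was -0.29. At an unadjusted p under 0.05 there were 5 of 10, Setl2, Anp32a, Anp32e, Nap1l4 and Nap1l3 (cluster 17873738), all lower, against 7.13% of all clusters and 8.75% of single-symbol clusters lower at that p, and 10.2% of all clusters in either direction. At the adjusted p of 0.05 there were 0 among the members and 0 among all clusters (0%). The arrays did not overlap in 9 of 10 clusters, all lower, against 26.4% of all clusters and 34.7% of single-symbol clusters. The 15 ganglion cell marker clusters were also all lower than in mCherry, with a median of -0.51. Of these 0 were at an unadjusted p under 0.05 and 3 did not overlap. The median difference of clusters in the same level decile was -0.46 for Anp32a, Anp32e and Nap1l5, -0.41 for Setsip, Anp32b, Nap1l1 and Nap1l4, -0.25 for Setl2 and Nap1l3 (cluster 17878685) and -0.10 for Nap1l3 (cluster 17873738), and 9 of 10 members lay below theirs. With quantile normalization all 10 were still lower, with a median of -0.45, and 6 did not overlap, against 11.6% of all clusters. With cyclic loess all 10 were lower too, with a median of -0.40, and 4 did not overlap, against 12.1% of all clusters.

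In myr_Set against mCherry 9 of 10 clusters were lower, with a median of -0.59, where 63.9% of all tested clusters and 74.5% of the single-symbol clusters were lower and the single-symbol median was -0.26. At an unadjusted p under 0.05 there were 2, Setsip and Nap1l3 (cluster 17878685), both lower, against 6.92% of all clusters and 8.54% of single-symbol clusters lower, and 9.79% of all clusters in either direction. The arrays did not overlap in 3 of 10, all lower, against 6.85% of all clusters and 8.02% of single-symbol clusters. The 15 ganglion cell marker clusters were again all lower than in mCherry, with a median of -0.50. Of these 3 were at an unadjusted p under 0.05 and 3 did not overlap. The median difference of clusters in the same level decile was -0.47 for the Anp32 genes, Nap1l1, Nap1l4, Nap1l5 and Setsip. It was -0.22 for Setl2 and Nap1l3 (cluster 17878685) and -0.06 for Nap1l3 (cluster 17873738). Of the members 8 of 10 lay below theirs, Nap1l1 by very little, and Setl2 and Nap1l5 lay above. With quantile normalization 3 did not overlap, against 6.23%, and with cyclic loess 1, against 6.18%. Quantile normalization gave a median of -0.31 and cyclic loess one of -0.23. It was -0.29 without myr_Set replicate 1 and -0.96 without myr_Set replicate 3. The comparisons of wt_Set and myr_Set with mCherry share the mCherry arrays, so their likeness is no separate observation.

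In myr_Set against wt_Set 3 of 10 clusters were lower and 7 higher, with a median of 0.17. Of all tested clusters 48.5% were lower, and of the single-symbol clusters 46.6%, with a single-symbol median of 0.01. Setl2, higher in myr_Set, was the 1 member at an unadjusted p under 0.05, against 0.567% of all clusters higher at that p and 1.13% in either direction. The arrays did not overlap in 2, Setl2 and Nap1l3 (cluster 17873738), both higher, against 2.63% of all clusters and 2.51% of single-symbol clusters. With quantile normalization 1 did not overlap, Setl2, against 2.19% of all clusters higher, and with cyclic loess the same 2, against 2.58%. The list's median turned to -0.22 without myr_Set replicate 3 and was 0.45 without myr_Set replicate 1.

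**Figure D4:**
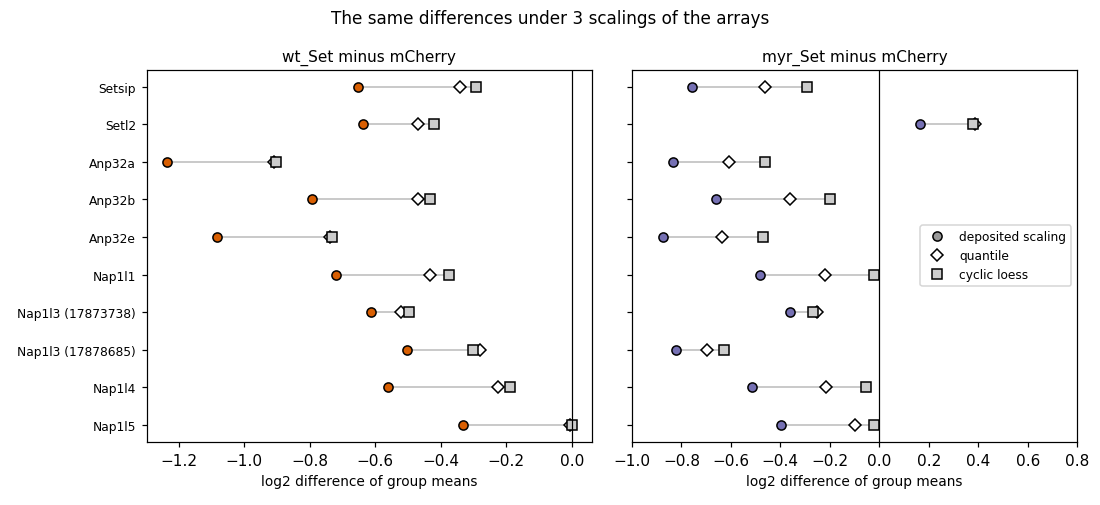
Difference of group means in log2 units (horizontal axis) for the 10 tested member clusters (vertical axis) with the deposited scaling, quantile normalization and cyclic loess. The differences from mCherry of all clusters but Setl2 in myr_Set move toward 0 under both, and Anp32a in wt_Set keeps -0.91 and -0.90.

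Other histone chaperones were read from a list of 40 symbols, 32 of which had a cluster, with 24 clusters tested. In wt_Set 23 of 24 were lower than in mCherry, with a median of -0.50 and 4 at an unadjusted p under 0.05, and in myr_Set 24 of 24, with a median of -0.47 and 2 at that p. Of all single-symbol clusters 77.2% were lower in wt_Set and 74.5% in myr_Set, and 8.75% and 8.54% were lower at that p, so the 2 of 24 (8.33%) in myr_Set were at the background share. Nucleolin, Ncl, a nucleolar histone chaperone, had 8.56 ± 0.51 in wt_Set and 8.98 ± 0.76 in myr_Set against 9.77 ± 0.43 in mCherry (SD, n = 3) in cluster 17697098. Its cluster 17866155 differed from mCherry by -0.83 ± 0.30 (SE) and -0.60 ± 0.30. Supt16h, a subunit of the FACT complex that opens nucleosomes for transcription, differed by -0.80 ± 0.32 in wt_Set and -0.71 ± 0.32 in myr_Set. Ubn1, a partner of the chaperone Hira, differed by -0.43 ± 0.22 and -0.66 ± 0.22. Each of these adjusted p-values was 0.447. Ubn1 was below the odorant receptor median on all wt_Set arrays, myr_Set replicates 1 and 2 and mCherry replicate 2, so the size of its differences is uncertain.

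Partners of Set and of the histone-shielding complex were read from 16 symbols, with 12 clusters tested. In wt_Set 12 of 12 were lower, with a median of -0.58 and 2 at an unadjusted p under 0.05, and in myr_Set 10 of 12, with a median of -0.44 and 1 at that p. The 1 of 12 (8.33%) in myr_Set was likewise at the background share of 8.54%, and single-symbol clusters as a whole were lower in 77.2% of cases in wt_Set and 74.5% in myr_Set. Elavl1, an RNA-binding protein that associates with Anp32 proteins, had 8.78 ± 0.06 in wt_Set and 8.90 ± 0.52 in myr_Set against 9.42 ± 0.04 in mCherry (SD, n = 3). Ybx1, a cold-shock domain protein, differed from mCherry by -1.29 ± 0.52 (SE) in wt_Set and -1.18 ± 0.52 in myr_Set in cluster 17636536, and by -0.67 and -0.54 in its other cluster. Crebbp, an acetyltransferase of histones, differed by -0.62 ± 0.34 and -0.70 ± 0.34. Xpo1, the nuclear export receptor, differed by -0.66 ± 0.47 and -0.95 ± 0.47. Adjusted p-values of these lay between 0.447 and 0.477.

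The clusters most like Setsip over the 9 arrays were sought by the root mean square difference of log2 values, each centred on its own mean. The nearest of 10713 single-symbol clusters were Eif4g2, a translation initiation factor, at 0.0962, Ssbl1 at 0.0997, Pced1a at 0.112, Cct4, a chaperonin subunit, at 0.112 and Ptk2, the focal adhesion kinase, at 0.116 log2 units. The median cluster was at 0.401. Among the members Nap1l4 came nearest, at 0.199, followed by Nap1l3 (cluster 17878685) at 0.204 and Anp32b at 0.249, while Setl2 was at 0.574, farther than 82.2% of clusters. The nearest to Setl2 was Mmut, a mitochondrial mutase, in a pair of clusters with identical values at 0.241, followed by Akap13, a kinase anchor protein, at 0.245. Mmut had 6.53, 6.32 and 6.45 on wt_Set replicates 1, 2 and 3, 6.88, 6.89 and 6.82 on those of myr_Set and 6.84, 6.87 and 6.85 on those of mCherry.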

How the data were processed

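Gene expression was measured on 9 Affymetrix rat gene arrays, 3 in each of 3 groups. Expression values came from RMA in Affymetrix Expression Console, per the submitters' processing notes, which give no versions. The authors then scaled every array to its median, per the labels' design text, and the deposited values are intensities on a linear scale. This step leaves the signal range of an array free. That range ran from 3.82 to 4.54, so the values as given are not quantile-normalized across the 9 arrays. How RMA was run to leave such a difference was not checked. No source used here gives a genome build for the array design. Precision is limited by the number of arrays.

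A platform annotation table gave 1 symbol to 18511 clusters, several to 575 and none to 17599, and all 10 member genes matched RefSeq by gene ID. Intensities were log2-transformed in R 4.3.3, and all 9 arrays were fitted by group means with limma 3.58.1 (lmFit, eBayes), with 6 degrees of freedom from the arrays and 2.82 from the prior. Clusters averaging under 6.65 on the log2 scale, the median cluster, were not tested, which kept 10 of 11 member clusters. The script was tested on simulated data. The members, the gene lists and the rule for named genes (per list the 4 clusters of largest absolute moderated t over the 3 comparisons, and the 5 nearest patterns to Setsip and 3 to Setl2) were chosen with earlier results of these data known. Alternatives were 2 normalizations, other filters, fits of the groups compared alone, a replicate block, array weights, an intensity trend and leaving out each array. An estimate of array weights gene by gene was added after seeing the data.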

Additional observations from a re-analysis of the deposited data

Results flagged for a closer look

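The Setl2 difference of myr_Set minus wt_Set, 0.80 log2 units, stood out because all 3 myr_Set arrays were above the mCherry mean of 7.94 and all 3 wt_Set arrays were below it. The test of the difference between the forms of Set, limma's, gave an adjusted p of 0.9998. The direction was higher in 3 of 3 myr_Set arrays than in any wt_Set array. On wt_Set replicates 1 and 2 Setl2 was below the odorant receptor median, and whether its probes bind only Setl2 transcripts was not tested.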

How the results depend on the processing

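Over 19 alternatives, the median difference of the member clusters kept its sign against mCherry. Leaving out 1 array moved it between -0.74 and -0.57 in wt_Set and between -0.96 and -0.29 in myr_Set, and between -0.22 and 0.45 for myr_Set minus wt_Set. For some clusters the sign turned with 1 array left out. For myr_Set minus mCherry these were Nap1l1, with -0.88 without myr_Set replicate 3 to 0.12 without replicate 1, and Mmut, with -0.0023 to 0.0283 (-0.0153 with cyclic loess). For myr_Set minus wt_Set, leaving out myr_Set replicate 3 or 1 gave -0.44 to 0.25 for Setsip, -0.19 to 0.96 for Anp32a, -0.25 to 0.63 for Anp32b, -0.29 to 0.76 for Anp32e, -0.16 to 0.84 for Nap1l1, -0.16 to 0.27 for Nap1l4 and -0.27 to 0.09 for Nap1l5. Without wt_Set replicate 1 Setsip was at 0.02 and Nap1l5 at 0.14, and without wt_Set replicate 3 Anp32b was at -0.08 and Nap1l4 at -0.0071. The cause was not tested. Clusters past the adjusted p of 0.05 stayed at 0 except with the planned array weights, which called 5903 in myr_Set minus mCherry and 1270 in myr_Set minus wt_Set, among them 7 member values. The planned weights gave myr_Set replicate 2 a weight of 165, against 0.151 to 1.68 for the others, so these calls rest on 1 array. The smallest adjusted p of a member in all alternatives without array weights was 0.104.

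Clusters at an unadjusted p under 0.05 numbered 1865 in wt_Set minus mCherry, 880 to 3862 without single arrays, 3043 with no filter, 885 when tested above the 75th percentile of level, 1159 with single-symbol clusters, 4262 in a fit of the 2 groups, 6279 with planned and 4688 with gene-by-gene weights. In myr_Set minus mCherry they were 1796, and in the same order 642 to 6141, 2986, 842, 1158, 891, 8627 and 3801. In myr_Set minus wt_Set they were 208, with 182 to 833, 749, 70 and 52 in the first 4 of these and 4514 and 1055 with the 2 weightings. Filters change the number tested. Same-numbered arrays deviated together with correlations from -0.069 to 0.383, under 0.1 in 4 of 9 pairs. Arrays of different number and group had correlations from -0.398 to 0.365. The numbers were not taken as pairs. With the replicate block these counts were 1937, 1754 and 251, with 0 past the adjusted threshold, and no call changed. Members near background have differences of uncertain size: Setl2 in wt_Set, Nap1l3 (cluster 17873738) in both Set-β groups, and Anp32a, Anp32e and Nap1l3 (cluster 17878685) on myr_Set replicate 1. Among the other named genes the same holds for Ubn1, Mmut and Akap13 on most arrays.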
